A study of Mus musculus with 8 samples.

Results

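The genes described here are 10 members of interleukin-1 (IL-1) signalling and of the NF-kB feedback that follows it: Il1b, Il1rn, Il1r1, Il1rap, Nfkb1, Nfkbia, Nfkbiz, Tnfaip3, Icam1 and Vcam1. They were taken by symbol from a table of 22183 genes, all 10 were found, and all 10 passed the filter on low counts that left 12722 genes. Gene expression was measured by sequencing of poly(A)-selected RNA from livers of C57 mice, an inbred laboratory strain, and the study asks which genes change in liver after treatment with MSCs. CTRL (n = 2) is labelled control, and nothing in the labels says whether it received PBS. APAP_PBS (n = 3) was given APAP (usually short for acetaminophen) intraperitoneally at 400 mg/kg, and PBS, which is buffered saline. In APAP_MSC (n = 3) an injection of MSCs (usually short for mesenchymal stromal cells) into the tail vein followed 4 hours after APAP at that dose. Livers were collected at 24 hours, and neither the mice's age and sex nor the origin of the MSCs is stated in the labels. The treatment text is the same for every sample and mentions APAP, so CTRL is taken as the group without APAP from its label, control, alone. The labels do not tie the libraries to separate animals, so p-values reflect only the spread among these libraries, and that spread may be technical.

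IL-1 beta is a cytokine made as a precursor by activated macrophages, monocytes and neutrophils and cut to its active form by caspase-1. It binds the receptor IL1R1, which then recruits the accessory chain IL1RAP, and the pair signals through MyD88 and IRAK kinases to the transcription factor NF-kB. NF-kB in turn induces its own brakes, among them NFKBIA and TNFAIP3, and adhesion molecules that hold leukocytes to the vessel wall. Liver injury by acetaminophen kills hepatocytes around the central veins and is followed by an influx of neutrophils and monocytes.

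Libraries held 16261191 to 24516470 estimated counts. Levels of a gene across samples are given as CPM after TMM normalisation, which corrects each library's depth for its composition, and levels of different genes are compared only as FPKM, which is scaled to gene length. No library was a copy of another of its group: chi-square values per degree of freedom within a group were 13.7 to 71.6, above sampling noise. Libraries of different groups were not compared in this way. The first principal component (44.2% of the variance) placed APAP_MSC replicate 2 at -17.6, between CTRL (-66.0 and -49.1) and the other APAP libraries (16.5 to 38.3). The 10 hepatocyte markers, such as albumin, summed to 87920 to 119338 CPM in every library, which fits the labelled tissue.

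In APAP_PBS livers Il1r1, Vcam1 and Nfkbiz rose and Il1rap fell against CTRL, while Il1b, Nfkb1 and Nfkbia showed no change past the threshold. Of these calls, only that of Il1r1 held in all 18 alternative fits. In APAP_MSC livers none of the 10 genes differed from APAP_PBS past the threshold. Against CTRL, Il1r1 was still higher and Il1rap still lower, but these calls were lost in 11 and 5 of the 18 alternative fits. Of the 10 genes, 3 were higher and 1 was lower in APAP_PBS than in CTRL at an adjusted p under 0.05 (edgeR quasi-likelihood test, Benjamini-Hochberg adjustment over 12722 genes), where 4.29% of all genes tested were higher and 5.97% lower, 10.3% in all. The libraries of the 2 groups did not overlap for 5 genes that were higher and 1 that was lower in APAP_PBS, against 25.0% and 22.6% of all genes. The median log2 fold change of the 10 was 0.91, and that of all genes tested was 0.03. In bulk tissue, fewer cells of a type and less RNA per cell cannot be told apart.

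**Figure D1:**
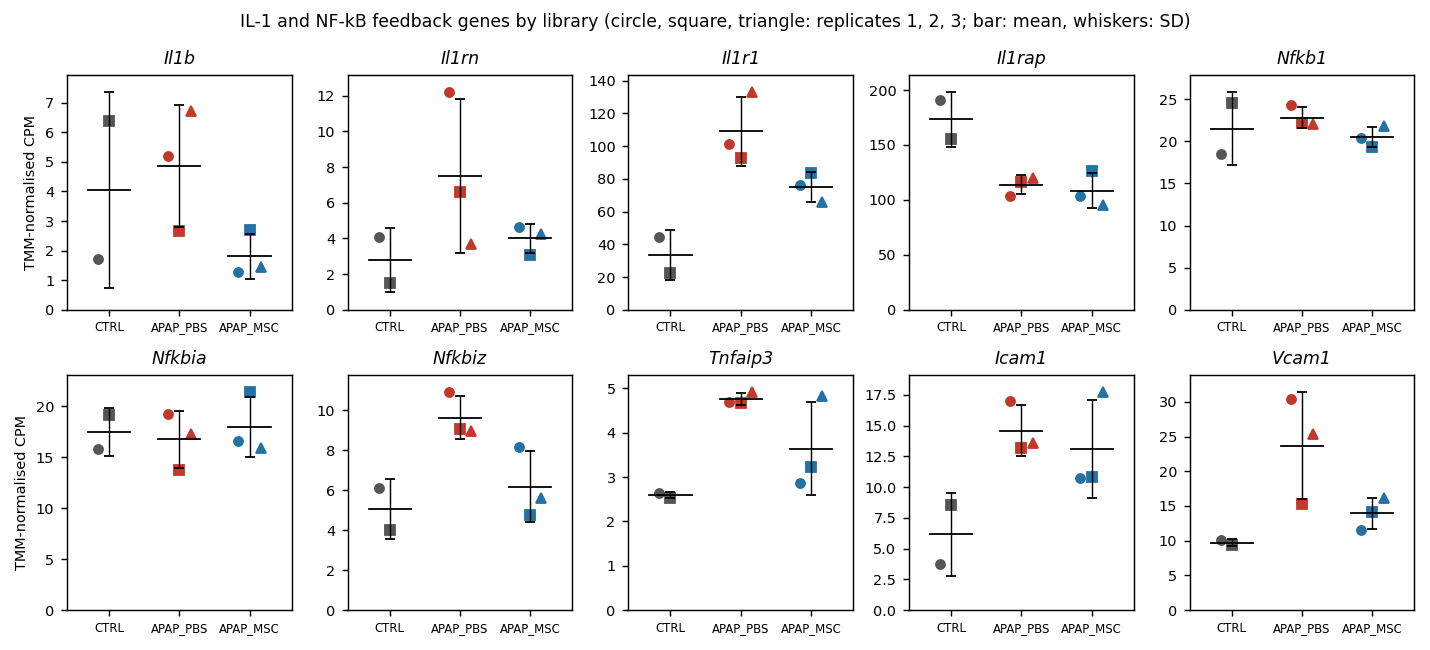
Level of each of the 10 genes in TMM-normalised CPM (vertical axes, each starting at 0) in the 8 libraries by group, with the group mean as a bar and the SD as whiskers. Il1r1 lies at 22.8 to 44.5 CPM in CTRL and above 65 CPM in every APAP library, while the 3 groups overlap for Nfkbia.

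Per length, Il1rap was the highest of the 10 genes in each group and Tnfaip3 the lowest. In CTRL the order of mean FPKM was Il1rap (65.8 ± 5.80, SD, n = 2), Nfkbia (9.97 ± 2.01), Il1r1 (6.09 ± 2.41), Nfkb1 (5.83 ± 1.18), Il1b (2.75 ± 2.36), Vcam1 (2.51 ± 0.0346), Il1rn (2.45 ± 1.86), Icam1 (2.22 ± 1.34), Nfkbiz (1.24 ± 0.289) and Tnfaip3 (0.523 ± 0.0212). The libraries of Il1r1 and Nfkb1 overlapped, as did those of each neighbouring pair from Il1b to Nfkbiz. In APAP_PBS Il1r1 moved to the second place, at 23.4 ± 4.02 FPKM (SD, n = 3) against 50.3 ± 3.52 for Il1rap and 11.2 ± 1.87 for Nfkbia, and its libraries overlapped neither neighbour. The same 3 genes led in APAP_MSC, at 44.7 ± 4.24 for Il1rap, 15.6 ± 1.35 for Il1r1 and 11.5 ± 1.28 for Nfkbia, with no overlap between them.

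Among ligands, Il1b encodes IL-1 beta itself (ENSMUSG00000027398; GRCm38, GENCODE M21, chromosome 2, 129364570 to 129371139, minus strand). Its level was 1.71 and 6.39 CPM in the CTRL libraries, 5.20, 2.65 and 6.73 CPM in APAP_PBS and 1.28, 2.68 and 1.44 CPM in APAP_MSC. CTRL thus spanned nearly the whole range of the study, and its 2 libraries rested on 24 and 136 counts. The log2 fold change of APAP_PBS against CTRL was 0.22 ± 0.57 (SE; edgeR adjusted p = 0.855), and its sign turned without CTRL replicate 1 (-0.41) and without APAP_PBS replicate 3 (-0.09). Between the APAP groups it was -1.41 ± 0.54 (unadjusted p = 0.0288, edgeR adjusted p = 0.732), where APAP_PBS replicate 2 (2.65 CPM) overlapped APAP_MSC replicate 2 (2.68 CPM). In GENCODE M21 an antisense gene, Il1bos, overlaps exons of Il1b on the other strand. Reads of the pair cannot be told apart unless the counting used the strand, which is not stated.

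Il1rn encodes the IL-1 receptor antagonist, a secreted protein that occupies IL1R1 without signalling. It stood at 4.06 and 1.5 CPM in CTRL, at 12.2, 6.59 and 3.69 CPM in APAP_PBS and at 4.67, 3.09 and 4.24 CPM in APAP_MSC. APAP_PBS replicate 1 was the highest library, and the lowest of that group lay within the range of CTRL. The log2 fold change of APAP_PBS against CTRL was 1.47 ± 0.56 (edgeR adjusted p = 0.141), which did not pass. It was 2.31 without CTRL replicate 1, 0.89 without CTRL replicate 2 and 0.93 without APAP_PBS replicate 1 (adjusted p = 0.103, 0.443 and 0.299), and passed with DESeq2 (1.43, 0.0260) and with the replicate block (1.63, 0.0434). Between the APAP groups it was -0.91 ± 0.47 (edgeR adjusted p = 0.774), and -0.37 without APAP_PBS replicate 1.

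The tested gene whose log2 CPM over the 8 libraries was most like that of Il1rn, among 11223 candidates, was Itgam (Pearson r = 0.97), which encodes an integrin subunit of neutrophils, monocytes and macrophages; the next was Pold1 (0.96), a DNA polymerase subunit. These libraries share their groups, so such values describe the pattern alone. Itgam stood at 6.78 CPM in APAP_PBS replicate 1, its highest library, and at 0.846 to 3.48 CPM in the other 7. The neutrophil marker S100a9 was also highest there, at 10.2 CPM against 0.564 to 3.44 CPM in the others. The summed level of 12 monocyte and macrophage markers was 287 CPM in that library, against 163 and 164 CPM in the others of its group, 119 and 183 CPM in CTRL and 124 to 177 CPM in APAP_MSC. The 11 neutrophil markers summed to 7.96 to 31.5 CPM in APAP_PBS, 6.44 to 14.8 CPM in APAP_MSC and 3.24 and 21.6 CPM in CTRL, where Ltf alone gave 15.3 CPM of the higher CTRL value. The defining neutrophil gene Ly6g was at 0 in 7 of the 8 libraries. Of these 2 lists, 2 of 8 tested neutrophil and 2 of 12 monocyte and macrophage markers were called higher in APAP_PBS than in CTRL, where 4.29% of all genes were, and 0 of either in APAP_MSC against APAP_PBS (edgeR). The median log2 fold change of the tested neutrophil markers was 2.26 in the first comparison and -1.35 in the second, and that of the monocyte and macrophage markers 0.42 and -0.46. Within APAP_PBS, replicate 1 was also highest for the 10 Kupffer cell markers (430 CPM against 272 and 357 CPM). The same held for the 12 endothelial markers (543 CPM against 408 and 467 CPM). Its hepatocyte sum, 87920 CPM, was the lowest of the 8 libraries. Ltf, Ngp, Ly6g, Adgre1, Csf1r and Ms4a7 of the myeloid lists were not highest in that library, and Ngp and Ly6g did not pass the filter. The part of these cell types in the levels of Il1b and Il1rn was not tested.

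**Figure D2:**
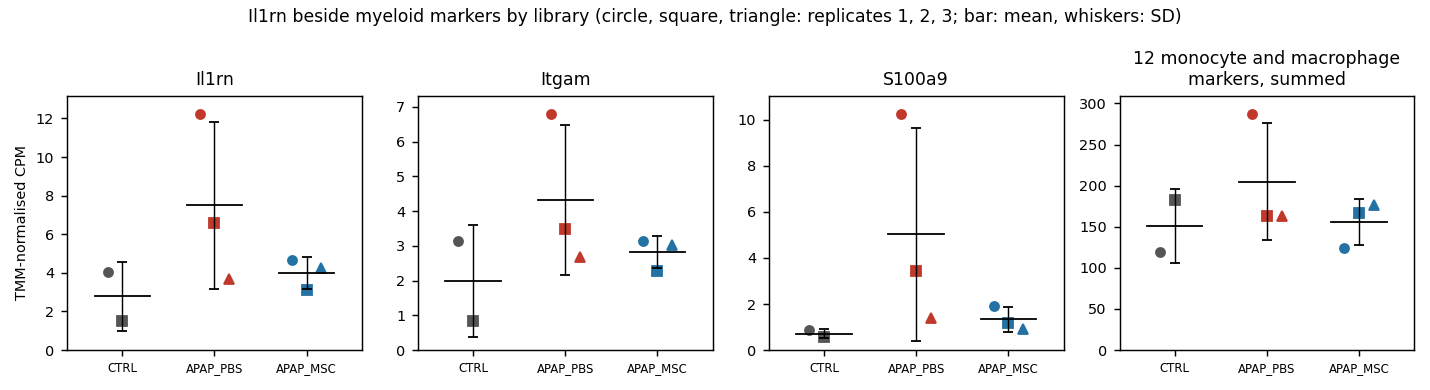
Il1rn, the myeloid integrin gene Itgam, the neutrophil gene S100a9 and the sum of 12 monocyte and macrophage markers, in TMM-normalised CPM by library and group, with means and SD. APAP_PBS replicate 1 is the highest library in all 4 panels, at 12.2, 6.78, 10.2 and 287 CPM.

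Among receptors, Il1r1 encodes the chain that binds IL-1 (ENSMUSG00000026072; GRCm38, GENCODE M21, chromosome 1, 40225080 to 40317257, plus strand). It was at 44.5 and 22.8 CPM in CTRL, at 101, 92.7 and 133 CPM in APAP_PBS and at 76.2, 83.4 and 65.5 CPM in APAP_MSC. The 3 groups did not overlap: CTRL was lowest, APAP_MSC lay between and APAP_PBS was highest. Il1r1 rose 3.26-fold in APAP_PBS against CTRL, a log2 fold change of 1.70 ± 0.28 (edgeR adjusted p = 0.00887), and it was the one gene of the 10 that was called in every alternative run for this comparison (1.3 to 2.26, 18 alternatives).

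Il1rap encodes the accessory chain that both IL-1 and IL-33 receptors need, and hepatocytes make it in quantity. It was at 191 and 155 CPM in CTRL, at 104, 117 and 120 CPM in APAP_PBS and at 104, 127 and 95.3 CPM in APAP_MSC. Both CTRL libraries lay above all 6 APAP libraries, which overlapped each other. It fell by 0.61 ± 0.14 on the log2 scale in APAP_PBS against CTRL (edgeR adjusted p = 0.0221). The call was lost without CTRL replicate 1 (-0.45, adjusted p = 0.170), without APAP_PBS replicate 1 (-0.55, 0.0914), 2 (-0.63, 0.0564) or 3 (-0.65, 0.0562). It was also lost when only library size was used for scaling (-0.36, 0.0657), where the median of all genes moved from 0.03 to 0.27, and on log2(FPKM + 1) values (-0.38, 0.0629). An antisense gene of the annotation, Gm20319, overlaps its exons.

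The FPKM ratio of Il1r1 to Il1rap did not overlap between the 3 groups. It was 0.111 and 0.0710 in CTRL, 0.476, 0.384 and 0.540 in APAP_PBS and 0.360, 0.337 and 0.348 in APAP_MSC. Against CTRL the numerator was higher and the denominator lower, while mean FPKM of both chains was lower in APAP_MSC than in APAP_PBS. Il1rap was the more abundant transcript in all 8 libraries. The FPKM ratio of Il1rn to Il1b, antagonist over ligand, showed no such order: it was 3.50 and 0.257 in CTRL, 2.62, 3.51 and 0.588 in APAP_PBS and 3.67, 0.900 and 3.10 in APAP_MSC. Each group thus held 1 library in which the ligand transcript was the more abundant. Neither ratio was tested.

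**Figure D3:**
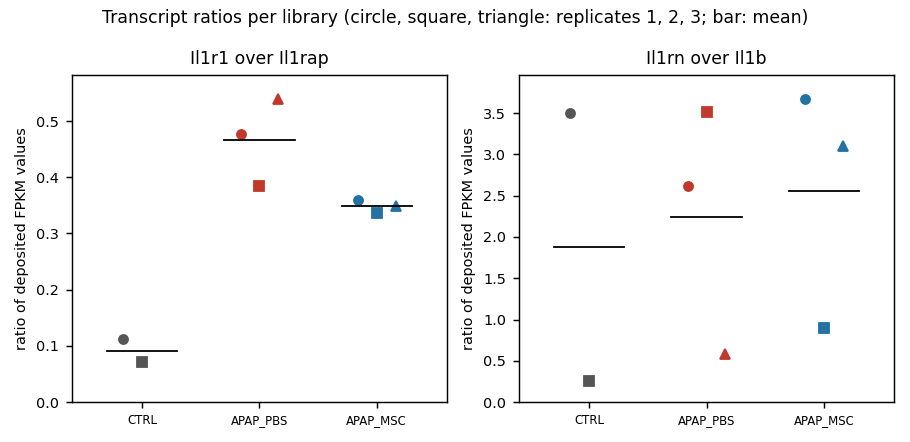
FPKM of Il1r1 over Il1rap and of Il1rn over Il1b per library, with the group mean as a bar. The receptor ratio is at most 0.111 in CTRL, 0.337 to 0.360 in APAP_MSC and 0.384 to 0.540 in APAP_PBS, while the antagonist ratio runs from 0.257 to 3.67 with the groups mixed.

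Nfkb1 encodes p105, the precursor of the NF-kB subunit p50. It was at 18.4 and 24.6 CPM in CTRL, at 24.2, 22.1 and 22.0 CPM in APAP_PBS and at 20.4, 19.3 and 21.8 CPM in APAP_MSC. The APAP groups were separated by a narrow margin and both lay within the span of CTRL. Its log2 fold changes were 0.08 ± 0.14 for APAP_PBS against CTRL and -0.15 ± 0.13 for APAP_MSC against APAP_PBS (edgeR adjusted p = 0.782 and 0.848).

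Nfkbia encodes IkB alpha, which holds NF-kB in the cytoplasm and is itself an NF-kB target. It was at 15.8 and 19.2 CPM in CTRL, at 19.3, 13.7 and 17.3 CPM in APAP_PBS and at 16.6, 21.4 and 15.9 CPM in APAP_MSC. The 3 groups overlapped, and the highest library was APAP_MSC replicate 2. Its log2 fold changes were -0.07 ± 0.18, 0.10 ± 0.16 and 0.03 ± 0.18 for APAP_PBS against CTRL, APAP_MSC against APAP_PBS and APAP_MSC against CTRL (edgeR adjusted p = 0.852, 0.925 and 0.944), and no direction held in every alternative.

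Nfkbiz encodes IkB zeta, a nuclear protein that is itself induced by IL-1 and is needed for a second set of NF-kB target genes. It was at 6.12 and 4.00 CPM in CTRL, at 10.9, 9.07 and 8.95 CPM in APAP_PBS and at 8.17, 4.74 and 5.61 CPM in APAP_MSC. All APAP_PBS libraries were above all others. It rose 1.93-fold in APAP_PBS against CTRL (log2 fold change 0.95 ± 0.26, edgeR adjusted p = 0.0426), close to the threshold. The call was lost without CTRL replicate 2 (0.66, adjusted p = 0.248) and without APAP_PBS replicate 1 (0.85, 0.136), 2 (0.99, 0.0793) or 3 (0.99, 0.0830).

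Tnfaip3 encodes A20, an enzyme that edits ubiquitin chains and shuts off signalling to NF-kB. It was at 2.63 and 2.54 CPM in CTRL, at 4.69, 4.68 and 4.91 CPM in APAP_PBS and at 2.86, 3.22 and 4.83 CPM in APAP_MSC. The APAP_PBS libraries were close together and above CTRL, while APAP_MSC ran from near CTRL to the level of APAP_PBS. The log2 fold change of APAP_PBS against CTRL was 0.88 ± 0.27 (edgeR adjusted p = 0.0589), just short of the threshold. It passed with library size as the only scaling (1.12, adjusted p = 0.0224) and on log2(FPKM + 1) values (0.53, 0.0317). It also passed on log2(FPKM + 0.1) values, with only the compared groups in the fit (0.86, 0.0279) and without APAP_MSC replicate 3 (0.88, 0.0258). In the other 13 alternatives, DESeq2 and the replicate block among them, it did not pass.

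Promoters of 7 of the 10 genes were searched for the site that NF-kB binds. No promoter was available for Nfkbiz, Nfkb1 and Vcam1, so these were not searched. RefSeq windows on GRCm38.p6, 250 bases before to 50 after a transcript start, were found for 7 of the 10 genes (11 windows, since Il1r1, Il1rn and Tnfaip3 have several). The NF-kB site, a consensus of 10 letters searched on both strands, occurred in 3 of these windows and in 4.51% of all 32851 windows of the same length. The looser frame GGGNNNNNCC, which every such site also matches, occurred in 9 of the 11 and in 50.8% of all. Windows 2 and 3 of Il1rn overlap and share 1 match to this frame, so that match counts in both. The 3 windows with the NF-kB site are shown because they set Nfkbia, which was not called in any comparison, beside Il1r1, which rose, and Tnfaip3, which fell just short of the threshold; capitals mark the sites, which are 2 in Tnfaip3.
Nfkbia, chr12:55492598-55492897, minus strand: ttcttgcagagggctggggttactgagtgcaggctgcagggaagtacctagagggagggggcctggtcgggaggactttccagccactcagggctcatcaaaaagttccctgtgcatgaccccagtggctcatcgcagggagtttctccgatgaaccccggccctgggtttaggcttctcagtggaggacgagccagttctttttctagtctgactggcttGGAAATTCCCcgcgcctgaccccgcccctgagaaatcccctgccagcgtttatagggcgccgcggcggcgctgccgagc
Tnfaip3, chr10:19015361-19015660, minus strand: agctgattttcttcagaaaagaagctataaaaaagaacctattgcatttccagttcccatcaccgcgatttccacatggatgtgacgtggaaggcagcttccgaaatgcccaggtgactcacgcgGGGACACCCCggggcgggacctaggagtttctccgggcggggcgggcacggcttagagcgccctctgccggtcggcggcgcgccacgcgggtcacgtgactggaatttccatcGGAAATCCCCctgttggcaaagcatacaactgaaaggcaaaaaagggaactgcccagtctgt
Il1r1, second start, chr1:40266336-40266635, plus strand: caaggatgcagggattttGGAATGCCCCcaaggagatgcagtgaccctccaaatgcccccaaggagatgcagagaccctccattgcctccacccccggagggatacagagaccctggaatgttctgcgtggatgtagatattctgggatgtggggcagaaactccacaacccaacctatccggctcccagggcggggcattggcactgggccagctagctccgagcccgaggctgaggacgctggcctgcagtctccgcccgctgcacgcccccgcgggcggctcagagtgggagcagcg
Counted from the transcript start, the Nfkbia site lies at -29 to -20 and those of Tnfaip3 at -125 to -116 and -12 to -3. That of Il1r1 lies at -232 to -223 from its second start, and the window of its first start holds none. A match describes letters only.

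Icam1 and Vcam1 encode adhesion molecules of the vessel wall that bind leukocyte integrins, and both are classical NF-kB targets. Vcam1 was at 10 and 9.40 CPM in CTRL, at 30.4, 15.2 and 25.3 CPM in APAP_PBS and at 11.6, 14.1 and 16.1 CPM in APAP_MSC. Every APAP library lay above CTRL, and the APAP groups overlapped through APAP_PBS replicate 2. It rose 2.43-fold in APAP_PBS against CTRL (log2 fold change 1.28 ± 0.27, edgeR adjusted p = 0.0181). The call was lost without CTRL replicate 1 (1.33, adjusted p = 0.0910), CTRL replicate 2 (1.24, 0.119) or APAP_PBS replicate 3 (1.23, 0.0549).

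Icam1 was at 3.77 and 8.56 CPM in CTRL, at 17, 13.2 and 13.6 CPM in APAP_PBS and at 10.7, 10.8 and 17.7 CPM in APAP_MSC. All 6 APAP libraries lay above CTRL. Its log2 fold change in APAP_PBS was 1.21 ± 0.35 (edgeR adjusted p = 0.0633), which did not pass. Without CTRL replicate 1 it was 0.77 (adjusted p = 0.187), and without CTRL replicate 2 it was 1.96 and passed (0.0222). It also passed with DESeq2 (1.21, adjusted p = 0.00283), with library size as the only scaling (1.43, 0.0445), without the robust option (1.21, 0.0438), on both FPKM scales (1.20 and 1.54, 0.0261 and 0.0224) and without APAP_MSC replicate 3 (1.21, 0.0334), and not in the other 11 alternatives. An antisense gene overlaps the exons of each, Gm47079 for Icam1 and Gm43109 for Vcam1. The 12 endothelial markers, such as Pecam1 and Stab2, summed to 363 and 480 CPM in CTRL, 408 to 543 CPM in APAP_PBS and 466 to 550 CPM in APAP_MSC, and 0 of them were called in any comparison by edgeR. Their median log2 fold change in APAP_PBS against CTRL was 0.23.

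**Figure D4:**
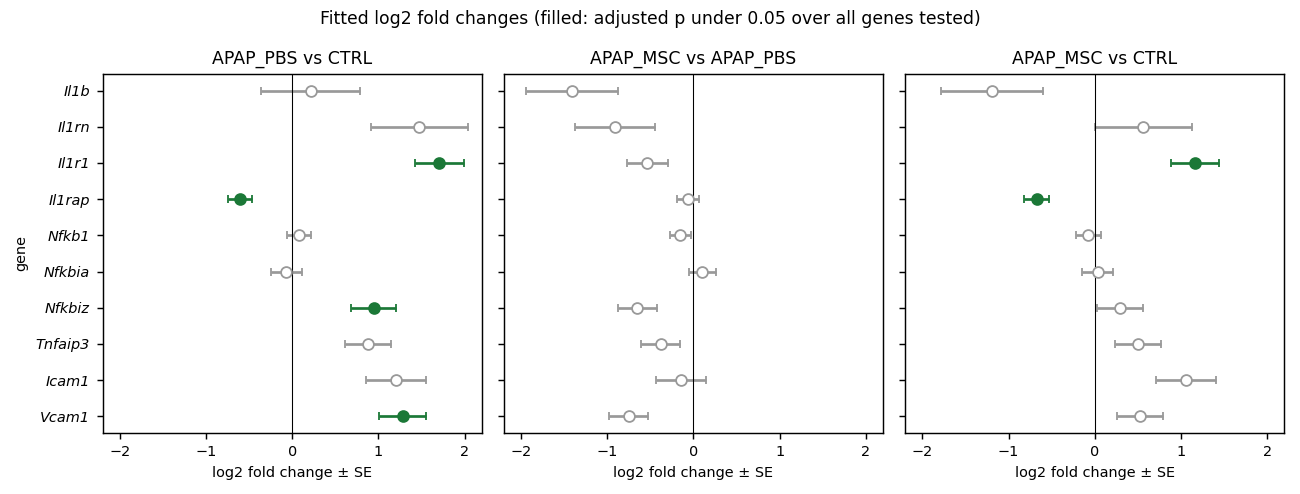
Log2 fold change with its standard error for the 10 genes (vertical axis) in the 3 comparisons; filled green points passed an adjusted p of 0.05 over all genes tested. In APAP_PBS against CTRL 4 points are filled, in APAP_MSC against APAP_PBS 0 and in APAP_MSC against CTRL 2.

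The comparison of APAP_MSC with APAP_PBS asks what the cells changed in injured liver. None of the 10 genes was called (edgeR, 0 higher and 0 lower; DESeq2 and limma on FPKM also 0), against 0.00786% of all genes tested, which is the single gene Cxcl1, the chemokine named in the series title. Cxcl1 was at 15.9 CPM on average in APAP_MSC and at 38.8 CPM in APAP_PBS, a log2 fold change of -1.28 ± 0.15 (edgeR adjusted p = 0.0340). At an unadjusted p under 0.05, 3 of the 10 were lower (Vcam1, Nfkbiz and Il1b) and 0 higher, against 3.70% and 2.92% of all genes. The fitted log2 fold change was below 0 for 9 of the 10, against 51.3% of all genes, with a median of -0.46 against -0.01. In the same comparison the median was also -0.46 for the 12 monocyte and macrophage markers, -1.35 for the 8 tested neutrophil markers and -1.04 for the 6 tested cholangiocyte markers, while it was 0.19 for Kupffer cell and 0.06 for endothelial markers. The part of these cell types in the values of the 10 genes was not tested. The same APAP_PBS libraries were compared with CTRL, where 8 of the 10 fold changes were above 0. The 2 comparisons are thus not independent: levels in APAP_PBS that were high by chance would raise those fold changes and lower these. Some of the 10 genes also vary together, so the count of 9 below 0 was not tested.

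The largest fitted differences between the APAP groups were those of Il1b and Il1rn, given above with the dependence of Il1rn on APAP_PBS replicate 1, followed by Vcam1 at -0.75 ± 0.23 (unadjusted p = 0.00854, edgeR adjusted p = 0.696) and Nfkbiz at -0.65 ± 0.22 (unadjusted p = 0.0136, edgeR adjusted p = 0.696). Il1r1 stood at -0.54 ± 0.24 and Tnfaip3 at -0.38 ± 0.22 (edgeR adjusted p = 0.753 and 0.806). Il1rap (-0.07 ± 0.13) and Icam1 (-0.15 ± 0.29) lay near 0, with an edgeR adjusted p of 0.938 each. The libraries did not overlap for Il1r1, Nfkb1 and Nfkbiz, all lower in APAP_MSC, which is 3 of 10 genes against 7.04% of all genes; 0 of the 10 were higher without overlap, against 6.81%. Without APAP_MSC replicate 2, the library nearest CTRL on the first component, the values were -1.81 for Il1b, -0.76 for Vcam1, -0.75 for Il1rn, -0.62 for Il1r1 and -0.49 for Nfkbiz, and again 0 of the 10 were called (edgeR adjusted p = 0.661 for Il1b).

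In APAP_MSC against CTRL, 1 of the 10 genes was higher (2.52% of all genes tested) and 1 lower (3.32% of all, 5.84% in both directions). The libraries did not overlap for 4 higher genes and 1 lower gene, against 17.8% and 17.7% of all genes. Il1r1 was 2.24-fold higher (log2 fold change 1.17 ± 0.28, edgeR adjusted p = 0.0479), and Il1rap was lower by a log2 fold change of -0.67 ± 0.14 (edgeR adjusted p = 0.0224). Both calls rested on single libraries: that of Il1r1 was lost without any single library other than CTRL replicate 1 (0.77 to 1.26 in those fits, adjusted p = 0.0522 to 0.119), and that of Il1rap without CTRL replicate 1 (-0.51, 0.18), APAP_MSC replicate 1 (-0.64, 0.0837) or APAP_MSC replicate 3 (-0.59, 0.0631). With the replicate number as a block the adjusted p was 0.113 for Il1r1 and 0.0743 for Il1rap. The other log2 fold changes were 1.06 ± 0.35 for Icam1, 0.53 ± 0.27 for Vcam1, 0.50 ± 0.27 for Tnfaip3, 0.29 ± 0.26 for Nfkbiz, 0.57 ± 0.57 for Il1rn and -1.19 ± 0.59 for Il1b, with an edgeR adjusted p of 0.120 to 0.630. APAP_PBS and APAP_MSC share CTRL, so their differences from it are not independent.

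The rest of the pathway was followed with 6 lists of 110 genes, of which 89 were tested. In APAP_PBS against CTRL 9 were higher and 3 lower, where 4.29% and 5.97% of all genes tested were, with a median log2 fold change of 0.14 over the 89 and 0.03 over all genes. In APAP_MSC against APAP_PBS 0 were called by edgeR, where 0.00786% of all genes were, with a median of -0.08. At an unadjusted p under 0.05, 2 were higher and 8 lower there, against 2.92% and 3.70% of all genes. In APAP_MSC against CTRL 3 were higher and 1 lower, where 2.52% and 3.32% of all genes were. The alternatives were not run for these lists. The shares of all genes apply to each list below as well, and no list was tested against them.

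Of other IL-1 family ligands and receptors 12 of 17 listed symbols were in the table and 5 were tested: Il1a, Il18, Il33, Il18bp and Sigirr. Il18bp, which encodes a secreted trap for IL-18, was at 6.12 and 7.99 CPM in CTRL, at 15.4, 12.4 and 14.7 CPM in APAP_PBS and at 15.5, 18.9 and 19.9 CPM in APAP_MSC. It rose in both APAP groups against CTRL, by log2 fold changes of 0.99 ± 0.18 and 1.35 ± 0.18 (edgeR adjusted p = 0.00704 and 0.00217). The APAP_MSC libraries were all above those of APAP_PBS, unlike those of the 10 genes (log2 fold change 0.35 ± 0.15, edgeR adjusted p = 0.743). The margin was narrow, at 15.46 CPM in APAP_MSC replicate 1 against 15.43 CPM in APAP_PBS replicate 1. Nlrp12 and Irak1 of the other lists, and 6.81% of all genes, were also higher without overlap. The ligand genes Il1a (0.45 ± 0.29), Il33 (0.56 ± 0.29) and Il18 (-0.17 ± 0.26) did not pass in APAP_PBS against CTRL, with an edgeR adjusted p of 0.367, 0.242 and 0.726.

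Of 14 tested inflammasome and IL-1 processing genes, 1 was higher and 0 lower in APAP_PBS. P2rx7, an ATP-gated channel that triggers the release of IL-1 beta, rose from 1.71 and 1.36 CPM in CTRL to 7.24, 4.80 and 4.15 CPM in APAP_PBS, which is 1.82 ± 0.42 on the log2 scale (edgeR adjusted p = 0.0214). It was at 5.95, 2.51 and 5.76 CPM in APAP_MSC, also higher than CTRL (1.63 ± 0.42, edgeR adjusted p = 0.0466). Casp1, which encodes the protease that cuts the IL-1 beta precursor, had a log2 fold change of 0.24 ± 0.32 (edgeR adjusted p = 0.688), and Nlrp3, an inflammasome sensor, one of 0.49 ± 0.67 (edgeR adjusted p = 0.702).

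Of 21 adaptors and kinases, 1 was higher and 0 lower in APAP_PBS, where 4.29% of all genes tested were higher and 5.97% lower. Tab2, an adaptor that links ubiquitin chains to the kinase TAK1, rose from 62.4 and 56.3 CPM in CTRL to 105, 90.5 and 107 CPM, which is 0.77 ± 0.14 on the log2 scale (edgeR adjusted p = 0.00823). In APAP_MSC it was at 96.9, 103 and 76.8 CPM (0.64 ± 0.14 against CTRL, edgeR adjusted p = 0.0273). The median of the 21 was 0.08.

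Of 12 NF-kB subunits and inhibitors, 1 was higher and 1 lower in APAP_PBS. Bcl3, a nuclear IkB protein, rose from 12 and 13.5 CPM to 22.4, 23.4 and 24.2 CPM (0.87 ± 0.20, edgeR adjusted p = 0.0192) and was at 15.7, 14.1 and 23.2 CPM in APAP_MSC. As with Tnfaip3, APAP_MSC replicate 3 was at the level of APAP_PBS and the other 2 were nearer to CTRL. Commd1, which promotes the removal of NF-kB from chromatin, fell by 0.58 ± 0.17 on the log2 scale (edgeR adjusted p = 0.0480). The subunit genes Rela (0.17 ± 0.16), Rel (0.65 ± 0.23), Relb (1.12 ± 0.35) and Nfkb2 (0.57 ± 0.24) did not pass, with an edgeR adjusted p of 0.557, 0.101, 0.0676 and 0.151.

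Of 15 genes of ubiquitin editing and mRNA decay, 1 was higher and 0 lower: Tnip2, an A20-binding protein, at 4.97, 5.14 and 4.97 CPM in APAP_PBS against 3.2 and 2.63 CPM in CTRL (0.79 ± 0.21, edgeR adjusted p = 0.0392). Of 22 tested effectors that NF-kB induces in various cells, 4 were higher and 2 lower. Sele, the endothelial selectin, was at 2.94, 1.37 and 0.702 CPM in APAP_PBS against 0.0712 and 0.0940 CPM in CTRL, which is under the 3-count floor in both CTRL libraries; it was called (edgeR adjusted p = 0.0176), and no fold is given. Selp, the selectin of platelets and endothelium, was at 7.69, 3.48 and 2.34 CPM against 1.35 and 1.18 CPM (1.83 ± 0.47, edgeR adjusted p = 0.0318). Gadd45b, a stress gene, rose by a log2 fold change of 1.91 ± 0.38 (edgeR adjusted p = 0.0106), and Map3k14, the kinase of the non-canonical NF-kB pathway, by 1.23 ± 0.35 (edgeR adjusted p = 0.0452).

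The 2 effectors that were lower were Sod2, the mitochondrial superoxide dismutase, and Tnfaip2. Sod2 was at 185 and 212 CPM in CTRL, at 128, 130 and 128 CPM in APAP_PBS and at 128, 148 and 124 CPM in APAP_MSC, so both CTRL libraries lay above all APAP libraries. Its log2 fold changes against CTRL were -0.63 ± 0.12 and -0.58 ± 0.12 (edgeR adjusted p = 0.00768 and 0.0172). Tnfaip2 fell by 0.71 ± 0.16 on the log2 scale in APAP_PBS (edgeR adjusted p = 0.0159).

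**Figure D5:**
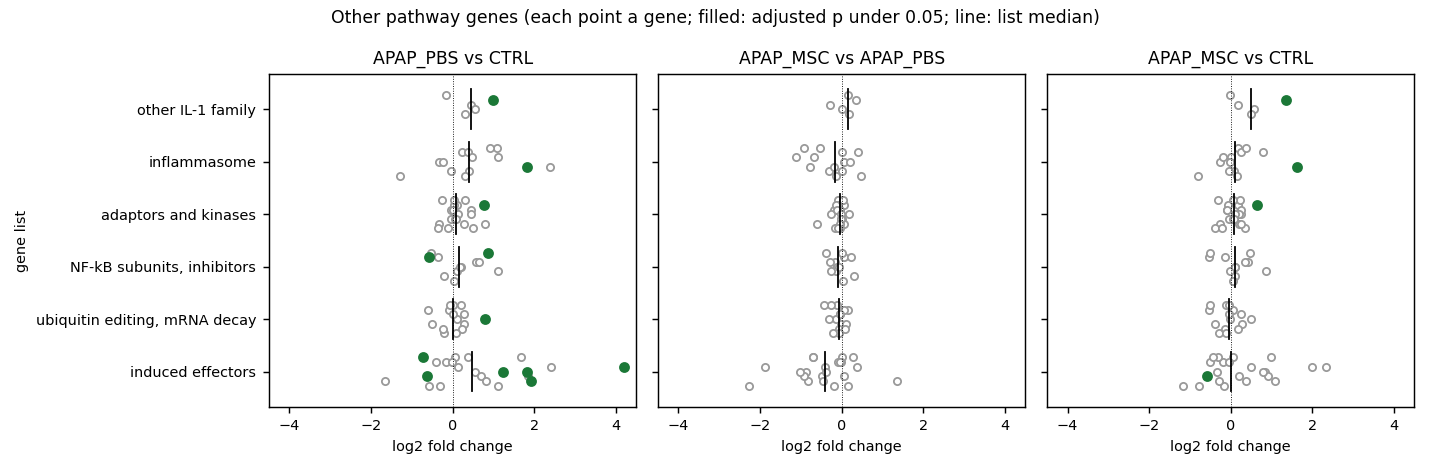
Log2 fold changes of the 89 tested pathway genes outside the 10, 1 point per gene in 6 lists (vertical axis) for the 3 comparisons; filled points passed an adjusted p of 0.05 and the line is the list median. In APAP_PBS against CTRL 12 points are filled, with Sele at the far right, and in APAP_MSC against APAP_PBS 0.

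The series title names miR-186-5p, a microRNA proposed to lower Cxcl1. Its mature sequence in RefSeq (GRCm38.p6, chr3:157544285-157544306, plus strand) is shown with the seed, bases 2 to 8, in capitals, because pairing of the seed is how a microRNA usually finds its target.
mmu-miR-186-5p: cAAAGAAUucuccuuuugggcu
The complement of the seed, ATTCTTT, was looked for in the longest annotated 3' untranslated region of each gene in GENCODE M21. It occurred in 2 of the 10 genes, once in Nfkbiz and 2 times in Vcam1, and in 19.5% of the 21007 genes with such a region, so the share among the 10 is near that of all genes. Cxcl1 holds it once. The Nfkbiz site, the first Vcam1 site and the Cxcl1 site are shown in the sense of the mRNA in DNA letters, with the match in capitals.
Nfkbiz: ttatacactgATTCTTTgtgacaaata
Vcam1: tggagaacacATTCTTTtctaacctat
Cxcl1: gcccttttacATTCTTTaaccctgttt
Neither Nfkbiz nor Vcam1 passed between the APAP groups, though their unadjusted p was the smallest of the 10 (edgeR, 0.0136 and 0.00854). Il1b and Il1rn, with larger fitted differences in that comparison, hold no match. A match of letters does not show that the microRNA acts at it, and its part in these values was not tested.

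For the 10 genes, other genes with a closely similar pattern of log2 CPM over the 8 libraries were listed as a description. Those nearest to Il1r1 were Cacul1 and Inpp4a (r = 0.99 and 0.97), to Il1rap Gtf2b and Aadat (0.99 and 0.98), to Icam1 Galns and Tspan4 (0.99 and 0.98) and to Vcam1 Cnot10 and Junb (0.97 each). Those nearest to Tnfaip3 were Bin1 and Brd2 (0.98 and 0.97), and to Nfkbiz Sdcbp and Phldb2 (0.97 and 0.96). For Il1b (Sik1 and Cdca4, 0.94 and 0.93), Nfkbia (Macf1 and Kcna2, 0.95 and 0.93) and Nfkb1 (Wrap73, 0.95) the highest values were lower. Among the 10 genes themselves the closest pairs were Il1rn with Nfkbiz (0.86) and Vcam1 with Tnfaip3 (0.84), while Il1rap was most like Il1b at 0.14.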

How the data were processed

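Liver mRNA of C57 mice was sequenced in 8 samples, placed in groups by their titles. The submitters' processing notes name fastp 0.18.0; aligner, quantifier, build and annotation: not given in the sources used here. The authors deposited an estimated count and an FPKM value (a level scaled to gene length and depth) for each of 22183 Ensembl genes and each sample, per the file headers. Estimated counts that were not whole (6.39% to 7.46% of values per sample) were rounded. Symbols came from GENCODE M21, which matched 22128 IDs. The labels state no strand setting.

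Genes were filtered with filterByExpr (12722 left), scaled with TMM and fitted over all 8 samples with 1 coefficient per group in edgeR 4.0.16 (R 4.3.3; robust quasi-likelihood test). The Benjamini-Hochberg adjustment ran over all genes tested, with a threshold of 0.05. The standard error is the log2 fold change divided by the root of F. Alternatives used DESeq2 1.42.0, limma 3.58.1 on log2(FPKM + 1) and log2(FPKM + 0.1), other scalings and filters, a replicate block, and each library left out. The 10 genes, the pathway lists and the markers were chosen with earlier results of these data known. The named pathway genes are up to 4 per list and comparison with the smallest adjusted p among called genes with a mean of at least 1 CPM in the higher group. Other pathway and marker genes named in the text (Selp, Map3k14, Il1a, Il18, Il33, Casp1, Nlrp3, Rela, Rel, Relb, Nfkb2 and S100a9 among them) were chosen after their values were seen. Same-numbered samples were not treated as pairs. Library totals and the 3-count floor (0.117 to 0.214 CPM) cover counting error only. One of the genes most like Nfkb1 in pattern is not reported here.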

Additional observations from a re-analysis of the deposited data

How the results depend on the processing

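Each comparison was repeated under 18 alternatives, 8 of which left out 1 library; where that left CTRL with 1 library, it was assumed to vary like the other groups. The number of the 10 genes called in APAP_PBS against CTRL (4) was 1 to 6 with 1 library left out and 4 to 6 otherwise. In APAP_MSC against CTRL (2) it was 0 to 2 with 1 library left out, 0 with the replicate block and with only the compared groups, 1 with DESeq2 size factors and with no low-count filter, 3 with the DESeq2 test (Icam1 added: 1.06, adjusted p = 0.0160) and 2 in the others. In APAP_MSC against APAP_PBS it was 0 in all 18. Over all genes, 1306 genes were called in APAP_PBS against CTRL, 1991 with library size alone (1620 higher and 371 lower, against 546 and 760), 793 with the replicate block and 478 to 1710 with 1 library left out; on log2(FPKM + 1) values 1154 were higher and 325 lower. In APAP_MSC against CTRL 743 were called, 321 with the block, 294 with only the compared groups, 1217 by DESeq2 and 260 to 1390 with 1 library left out; with library size alone 755 were higher and 236 lower, and on log2(FPKM + 1) values 447 and 207, against 321 and 422. In APAP_MSC against APAP_PBS 1 was called, 41 by DESeq2, and 0 or 1 in all others.

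Directions turned for fold changes that had not passed, and the cause was not tested. With library size alone and on both FPKM scales, Nfkbia in APAP_PBS against CTRL was 0.16, 0.16 and 0.17, and Nfkb1 in APAP_MSC against CTRL 0.11, 0.19 and 0.22; library size alone moved the median of all genes to 0.27 in the first and 0.20 in the second comparison. With 1 library left out, values in APAP_PBS against CTRL ran from -0.41 to 1.5 for Il1b, -0.19 to 0.089 for Nfkbia and -0.11 to 0.31 for Nfkb1. In APAP_MSC against APAP_PBS they ran from -0.19 to 0.019 for Il1rap and -0.040 to 0.22 for Nfkbia. In APAP_MSC against CTRL they ran from -1.80 to 0.10 for Il1b, -0.012 to 1.41 for Il1rn, -0.10 to 0.20 for Nfkbia and -0.25 to 0.17 for Nfkb1.

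Deviations of same-numbered libraries correlated at -0.14 to 0.18. Both ends of this range came from pairs with CTRL. Between APAP_MSC and APAP_PBS the values were 0.0025, -0.012 and -0.058 for replicates 1, 2 and 3. Whether same-numbered samples shared a batch cannot be decided from these values, since the groups hold only 2 or 3 libraries each. Library totals were alike across groups for replicate 1 (16261191 to 16532941 counts) and replicate 2 (22543929 to 23314223). For replicate 3 they were not (16626814 in APAP_PBS and 24516470 in APAP_MSC). With the block Il1rap lost its call in APAP_PBS against CTRL (-0.59, adjusted p = 0.0731) and Il1rn gained one (1.63, 0.0434).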
